A study of Mus musculus with 41 samples.

Results

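The 41 genes described here mark the leukocytes that enter a tumor, and their messenger RNA was measured in 9 mouse mesothelioma tumors and, as background, in 6 cell lines grown from such tumors. They are 41 of the 27197 genes of the count table and were chosen by name for 8 classes: 1 pan-leukocyte gene, 11 macrophage and monocyte genes, 10 T cell genes, 3 B cell genes, 6 genes of natural killer (NK) and other cytotoxic cells, 3 neutrophil genes, 4 dendritic cell genes, and 3 mast cell genes. The labels give 5 tumors of genotype Bap1-/-;Nf2-/-;Cdkn2ab-/- (BNC) and 4 of genotype Nf2-/-;Cdkn2ab-/- (NC), but they do not tie any tumor column to a genotype, so the tumors were treated as 1 group of 9 and named by the code in their column head (B1, B2, B13, B14, B19, B27, B28, and B45); 1 column has no code and is called the uncoded tumor. Of the lines, JB81, JB91, and JB97 are BNC and JB84, JB87, and JB93 are NC. All groups share the loss of Nf2 and Cdkn2ab. In this model a Cre recombinase under a CMV promoter was delivered by adenovirus into the pleural space of mice of mixed FVB, BL6, and 129Ola background, so any cell type that took up the virus could recombine, and the Ink4a and Ink4b parts of Cdkn2ab were deleted in the germline and therefore also in the leukocytes of these hosts. By the paper's methods, the mice also drank water with cyclosporine A, an immunosuppressant, before the virus and for some weeks after it. Its part in the leukocyte levels was not tested.

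As background, leukocytes of the hematopoietic system share the surface phosphatase CD45, which Ptprc encodes, and each lineage carries its own receptors and granule proteins. Macrophages, whose survival depends on the CSF1 receptor, are known to be abundant in pleural mesothelioma, T cells are recognized by the CD3 chains of their antigen receptor and by the CD4 or CD8 coreceptors, and neutrophils are recognized by the calcium-binding proteins S100A8 and S100A9. Mast cells, which reside in serosal linings such as the pleura, store carboxypeptidase and chymases in their granules. In RNA of whole tissue, fewer cells of a type and less RNA per cell cannot be told apart.

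The total count was between 8158740 and 21851974 in the tumors and between 12377675 and 23936922 in the lines. Levels are given as CPM, reads of a gene relative to all reads of its library after TMM scaling, and levels of different genes are compared only per kilobase of exon. Tumor B1 stood apart, because Gm42418 and Lars2, which overlap ribosomal RNA sequence, took 38.5% of its reads (95% Wilson interval 38.48 to 38.55, counting error only), and its TMM factor was 0.422. These 2 genes also took 10.8% of the reads of B13, against 0.416% to 0.807% in the remaining tumors. Mitochondrial genes took 17.3% of the reads of B1 and 1.51% to 9.36% in the other tumors. Lines JB81 and JB91, and lines JB84 and JB93, were close to each other, with biological coefficients of variation of 0.0386 and 0.0579, whereas the closest tumors, B1 and B19, had 0.309 and the next pair, B28 and the uncoded tumor, 0.369. Nothing in the labels states that the libraries came from separate animals, so p-values measure the spread between these libraries. All tumor columns share 1 prefix in their heads, and the lines fall under 2 others (JB81, JB84, and JB87, and JB91, JB97, and JB93), so no prefix holds both tumors and lines and library set and tissue cannot be told apart in any comparison between them.

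Genes of other tissues were read to very different degrees in the tumors. Mesothelial genes, which the lines also expressed (Msln up to 2015 CPM), were present in all tumors. Msln, a mesothelial surface protein, lay between 43.2 and 1439 CPM, and Upk3b, a uroplakin, between 3.63 and 1206 CPM, both lowest in B28. Lung epithelial genes summed to 48020 CPM in B2 and to between 2.77 and 99.0 CPM in the other 8 tumors, led by Scgb1a1, a club cell secretory protein, and Sftpc, a surfactant protein. Skeletal and cardiac muscle genes, led by Acta1 and Tnnt3, summed to 46620 CPM in B1, 44180 CPM in B45, and 44100 CPM in B19, against 180.1 CPM in B14. Adipocyte genes, led by Cfd and Fabp4, were highest in B45 with 3091 CPM. The part of such other tissue in the leukocyte levels was not tested, and values are given beside the results below.

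The promoters of 3 member pairs that moved together across the tumors are shown before their levels, 250 bases up to the RefSeq start on GRCm38.p6, 5′ to 3′ on the strand of the gene. The pairs are the complement genes C1qb and C1qc for macrophages, S100a8 and S100a9 for neutrophils, and Cpa3 and Mcpt4 for mast cells. Capitals mark matches on either strand to GAGGAA (the core bound by PU.1, a factor of myeloid cells), to TTGCNNAA (a form of the C/EBP site), or to AGATAA (a form of the GATA site).
C1qb, chr4:136886201-136886450, minus strand: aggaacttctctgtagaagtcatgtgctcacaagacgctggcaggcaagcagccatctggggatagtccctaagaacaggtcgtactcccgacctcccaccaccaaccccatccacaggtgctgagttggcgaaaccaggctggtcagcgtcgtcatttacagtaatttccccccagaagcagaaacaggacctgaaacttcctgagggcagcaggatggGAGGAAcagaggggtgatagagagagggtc
C1qc, chr4:136892915-136893164, minus strand: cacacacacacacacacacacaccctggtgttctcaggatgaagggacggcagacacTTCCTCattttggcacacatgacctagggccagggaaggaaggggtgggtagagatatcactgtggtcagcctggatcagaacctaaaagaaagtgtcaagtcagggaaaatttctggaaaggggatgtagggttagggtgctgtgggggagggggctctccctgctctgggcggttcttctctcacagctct
S100a8, chr3:90668821-90669070, plus strand: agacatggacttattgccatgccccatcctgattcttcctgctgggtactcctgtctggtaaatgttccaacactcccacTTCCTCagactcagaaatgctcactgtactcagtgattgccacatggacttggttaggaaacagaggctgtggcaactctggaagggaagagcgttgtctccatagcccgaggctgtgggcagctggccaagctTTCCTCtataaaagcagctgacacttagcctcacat
S100a9, chr3:90695722-90695971, minus strand: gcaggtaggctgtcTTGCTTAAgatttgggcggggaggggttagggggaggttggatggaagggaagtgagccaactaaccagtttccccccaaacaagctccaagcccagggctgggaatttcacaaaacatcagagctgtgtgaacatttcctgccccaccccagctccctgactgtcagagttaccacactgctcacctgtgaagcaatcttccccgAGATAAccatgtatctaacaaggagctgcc
Cpa3, chr3:20242182-20242431, minus strand: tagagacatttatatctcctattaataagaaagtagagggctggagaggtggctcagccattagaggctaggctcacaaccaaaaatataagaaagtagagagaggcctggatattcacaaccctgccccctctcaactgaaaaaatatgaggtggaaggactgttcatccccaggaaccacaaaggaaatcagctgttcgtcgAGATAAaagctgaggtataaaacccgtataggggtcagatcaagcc
Mcpt4, chr14:56062311-56062560, minus strand: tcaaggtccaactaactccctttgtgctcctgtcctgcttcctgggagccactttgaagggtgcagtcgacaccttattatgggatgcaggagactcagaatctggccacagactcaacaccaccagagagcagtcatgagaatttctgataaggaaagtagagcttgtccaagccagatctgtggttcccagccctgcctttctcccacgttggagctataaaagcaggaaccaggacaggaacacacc

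GAGGAA matched once in C1qb (bases 30 to 25 before the start), once in C1qc (193 to 188), and at 170 to 165 and 36 to 31 in S100a8. AGATAA matched in Cpa3 (46 to 41) and in S100a9 (30 to 25), and TTGCNNAA matched in S100a9 (236 to 229). No searched motif matched in Mcpt4. Of all 32851 promoter windows of this length, 23.3% held GAGGAA, 9.56% TTGCNNAA, and 9.99% AGATAA, so single matches to these short motifs are common. Among the 33 members with an entry, 16 held GAGGAA, 6 TTGCNNAA, and 6 AGATAA.

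Leukocyte genes were higher in the tumors than in the lines. Of the 41 members, 37 had enough reads to be tested, and all 37 were higher in the tumors by edgeR's quasi-likelihood test (Benjamini-Hochberg adjusted p under 0.01, over 2-fold), where 22.7% of all 14383 genes tested were higher and 12.4% were lower. The 37 are not independent support for a difference, because 30 of them had under 10 counts in every line and entered the test only through the tumors. The same limit holds for genes of the other lists counted below that had almost no reads in the lines. The 4 members below the filter were Ncr1, Ly6g, Xcr1, and Siglech. In 37 members every tumor was above every line, 35 of them among those tested, where 16.8% of all tested genes showed this. The median log2 fold change over the tested members was 9.91, or 8.52 with the members that had no read in any line set to their lower bound, against 0.17 over all tested genes.

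The lines were nearly empty of these transcripts. No line had a read of 18 members, another 12 had 1 to 3 reads over the 6 lines together, and 4 members exceeded 1 CPM in any line. Those 4 were Lyz2 (lysozyme), with 34.7 CPM in JB81 and 38.4 CPM in JB91, Csf1r, with 3.25 and 3.24 CPM in the same close pair of lines, Cd68, a lysosomal glycoprotein, with 2.39 to 4.11 CPM in all 6 lines, and Lck, a kinase of T cell receptor signaling, with 2.15 CPM in JB84 and 2.85 CPM in JB93. Lck was the member with the smallest difference between tumors and lines (log2 fold change 3.79 ± 1.09 SE, adjusted p = 0.00824, edgeR), and its lowest tumor, B28 with 2.27 CPM, lay below JB93. That call did not hold without JB81, JB91, JB97, or JB87 or without B1, B2, B14, B19, or B27 (largest adjusted p = 0.0179 by edgeR), and without JB93 the log2 fold change was 4.69. Ptprc was read in every tumor, between 81.0 CPM in B45 and 220.2 CPM in B27 with a median of 105.0 CPM, and with 3 reads over the 6 lines (ratio 5067, 95% counting interval 1734 to 24570).

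**Figure D1:**
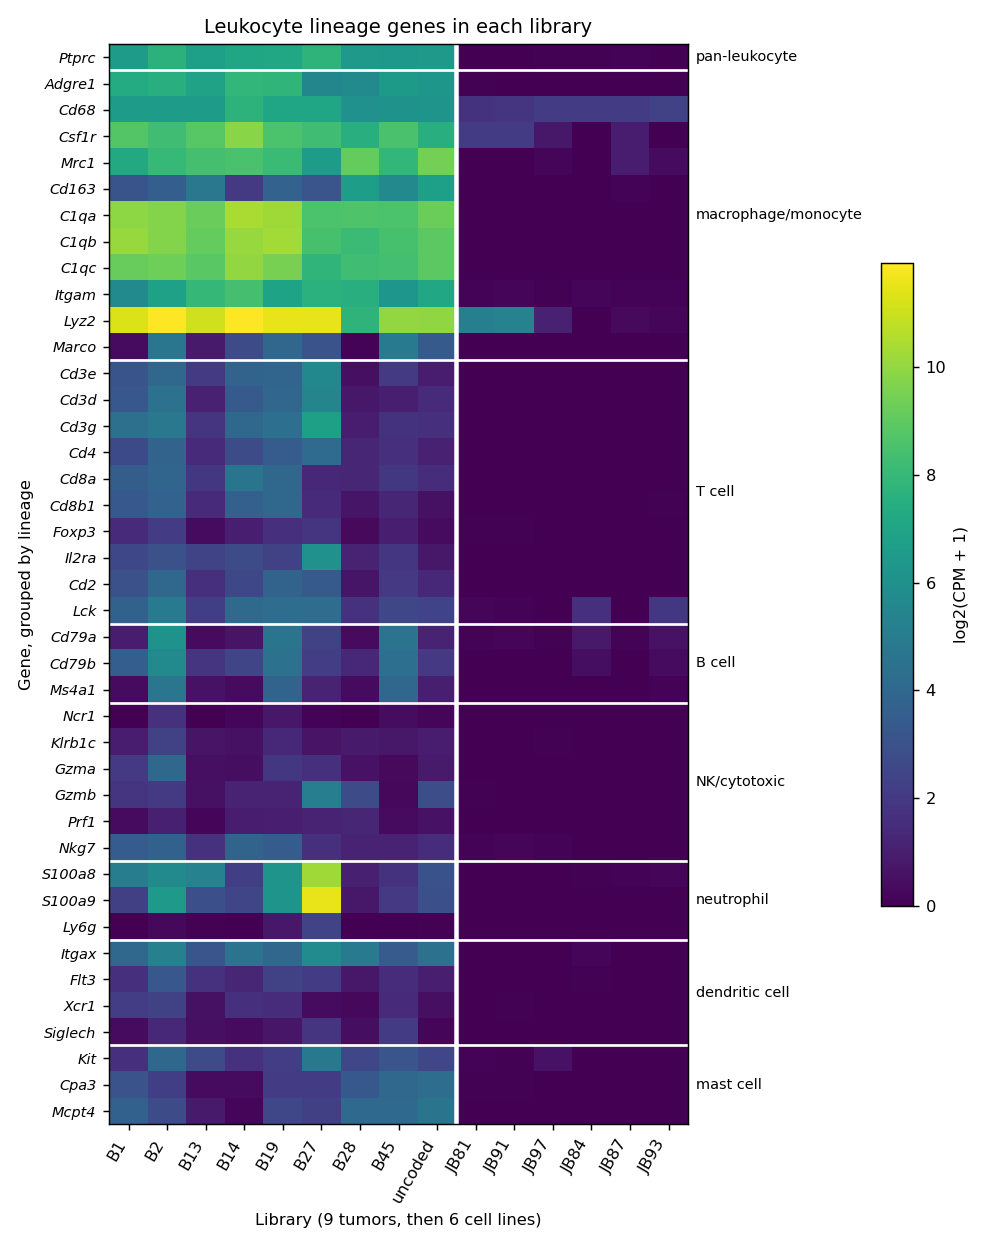
Level of each of the 41 leukocyte lineage genes in 9 tumors and 6 cell lines, as log2(CPM + 1) by color, with genes grouped by lineage and a vertical line between tumors and lines. The macrophage block is filled in all tumors, the T cell, B cell, and neutrophil blocks in some, and the line columns are dark except at Cd68, Csf1r, Lyz2, and Lck.

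Macrophage and monocyte genes dominated the leukocyte signal. The level of a lineage was taken as the geometric mean over its genes of CPM per kilobase + 0.1. On this scale macrophage and monocyte genes lay between 41.6 in B28 and 111.8 in B14 with a median of 69.3, and were first among the 7 lineages in 8 of 9 tumors. The exception was B27, where neutrophil genes reached 363.3 against 52.5 for macrophage genes. The medians of the other lineages over the tumors were 3.23 for neutrophil, 2.85 for mast cell, 2.55 for T cell, 0.921 for B cell, 0.754 for NK and cytotoxic, and 0.688 for dendritic cell genes. The neutrophil, T cell, B cell, and dendritic cell medians were the values of B1, the tumor with the low TMM factor. Scaled by library size only, the T cell median was 1.16 and the neutrophil median 3.16. No line exceeded 0.283 for any lineage, with 0.1 as the smallest possible value.

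Which lineage came second differed between tumors. It was the neutrophil class in B1, B13, and B19, the B cell class in B2 and B45, the mast cell class in B28 and the uncoded tumor, and the T cell class in B14. Dendritic cell genes were last in 5 tumors, NK and cytotoxic genes in 2, and B cell and mast cell genes in 1 each. Macrophage genes were above T cell, B cell, NK, dendritic cell, and mast cell genes in all 9 tumors, by a median of 38.5-fold over T cells and 21.02-fold over mast cells. Among these 7 lineages the macrophage level varied least between tumors, 2.69-fold from lowest to highest, against 3.85-fold for dendritic cells, 7.71-fold for NK and cytotoxic genes, 12.4-fold for T cells, 18.3-fold for mast cells, 51.0-fold for B cells, and 585.8-fold for neutrophils. The macrophage value averages 11 genes and the others 3 to 10. Single macrophage genes above the floor of 3 counts in all tumors spanned 3.25-fold (Cd68) to 33.6-fold (Cd163). Marco, which fell below that floor in B1 and B28, ranged more widely, from 0.0907 CPM in B28 to 30.6 CPM in B45. The order of the medians just below the macrophage genes depended on the added constant, being neutrophil, mast cell, and T cell genes with 0.1 but mast cell, T cell, and neutrophil genes with 0.01. With only the lead gene of each lineage, or with the median over its genes, macrophages were first in 6 tumors and neutrophils in 3.

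**Figure D2:**
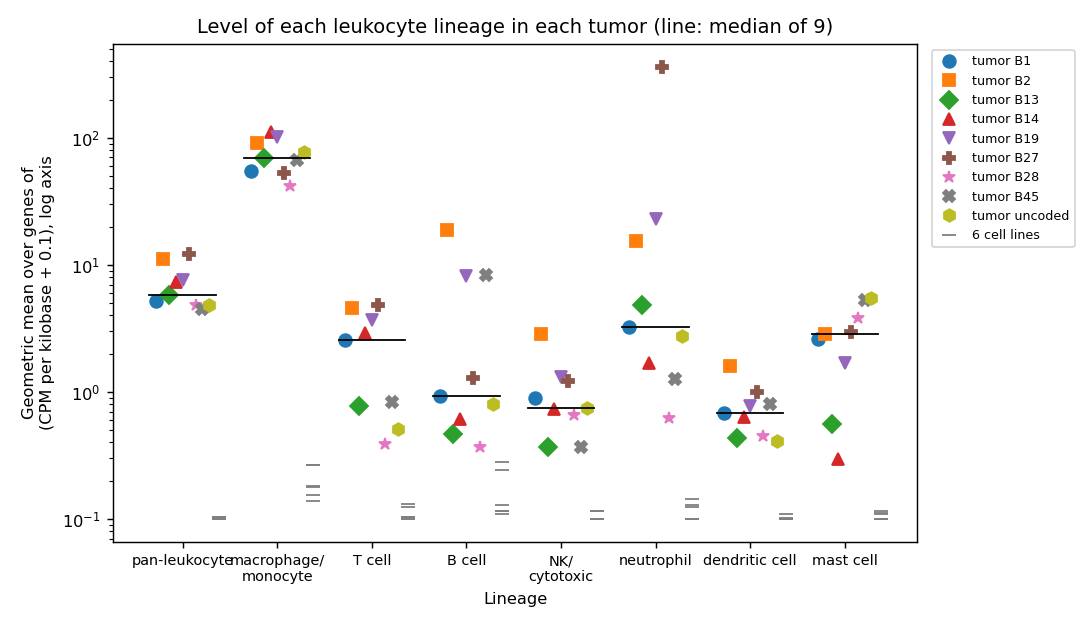
Level of each lineage in each of the 9 tumors (symbols), as the geometric mean over its genes of CPM per kilobase + 0.1 on a log axis, with the median of the tumors as a black line and the 6 cell lines as grey dashes. Macrophage and monocyte genes lie between 41.6 and 111.8 in all tumors, while neutrophil genes span 0.620 to 363.3.

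Among the macrophage genes the 3 chains of complement C1q, the recognition molecule of the classical pathway, had the largest lower bounds of the fold between tumors and lines. C1qa was read between 380.2 CPM in B27 and 1369 CPM in B14 with a median of 611.1 CPM, and no line had a read, so its mean was at least 30000-fold higher in the tumors (floor of 3 counts over the 6 lines). C1qb reached 1237 CPM in B19 and C1qc 1030 CPM in B14, again without a read in any line. The 3 genes kept a narrow ratio: per kilobase, C1qa was 2.11 to 3.14 times C1qc and C1qb was 1.62 to 3.43 times C1qc over the 9 tumors. Adgre1, the F4/80 antigen, followed them (r = 0.93 with C1qa, 0.93 with C1qb, and 0.94 with C1qc over 9 tumors, given as a description), from 44.3 CPM in B27 and 51.4 CPM in B28 to 240.0 CPM in B14.

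The remaining shared macrophage genes were present in every tumor. Csf1r, the CSF1 receptor, lay between 180.2 CPM in the uncoded tumor and 898.1 CPM in B14 (log2 fold change against the lines 8.14 ± 1.04 SE, adjusted p = 1.62e-05, edgeR). Cd68 spanned 65.1 to 211.9 CPM, and Itgam, the CD11b integrin chain that neutrophils also carry, spanned 51.4 CPM in B1 to 344.4 CPM in B14. Per kilobase Lyz2 was the highest macrophage member by its median, at 1932 CPM per kilobase, ahead of C1qa at 587.6 and C1qb at 506.4, but Lyz2 fell far lower in B28, to 220.3 CPM, than in the other 8 tumors, which held 983.1 to 3946 CPM. Reads of Lyz2 can be split with its near-identical neighbor Lyz1.

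Scavenger receptors split the tumors another way. Cd163, a hemoglobin scavenger receptor, was read at 105.5 CPM in the uncoded tumor, 100.8 CPM in B28, and 48.2 CPM in B45, and between 3.15 and 26.2 CPM in the other 6. Mrc1, the mannose receptor, was likewise highest in the uncoded tumor and B28, with 690.0 and 562.2 CPM, against 94.1 to 366.4 CPM elsewhere. Relative to Adgre1, per kilobase, Mrc1 stood at 5.56 in B28 and 4.41 in the uncoded tumor and between 0.479 and 1.49 in the other 7, and Cd163 at 1.16 and 0.787 against 0.00777 to 0.320. Across tumors Cd163 ran against Lyz2 (r = -0.86), against C1qb (r = -0.69), and against C1qa (r = -0.62), again a description over 9 tumors that share depth and composition. The 55 pairs of macrophage genes had a median r of 0.21, with a range of -0.87 to 0.97, whereas the 45 pairs of T cell genes had a median r of 0.87, with a range of 0.03 to 0.98. The lowest T cell pair was Cd8a with Il2ra.

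Marco, a scavenger receptor of resident macrophages such as those of the lung alveoli, was read at 30.6 CPM in B45, 25.1 CPM in B2, and 14.5 CPM in B19, and at 1 read in B1 and 2 reads in B28. In B2 lung epithelial genes were also high, but in B45 and B19 they summed to 3.74 and 2.77 CPM. All 21 other macrophage and monocyte genes of the list were higher in the tumors, against 22.7% of all tested genes. Many of the 21 had almost no reads in the lines and entered the test only through the tumors. The sum of the list lay between 1888 CPM in B28 and 6103 CPM in B2. By their mean over the tumors its highest genes were Apoe, the lipid carrier, between 679.3 and 3509 CPM, and Arg1, the arginine-degrading enzyme, although by the median Arg1 (111.0 CPM) lay below Mpeg1 (279.0 CPM), a pore-forming protein of macrophages named after its values were seen. Arg1 ranged from 15.4 CPM in B1 to 875.8 CPM in B27, with 737.4 CPM in the uncoded tumor, 610.9 CPM in B14, and 429.1 CPM in B28. Cd14, the lipopolysaccharide coreceptor, was named after its values were seen and reached 1890 CPM in B27 against 22.7 to 173.5 CPM in the other tumors.

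**Figure D3:**
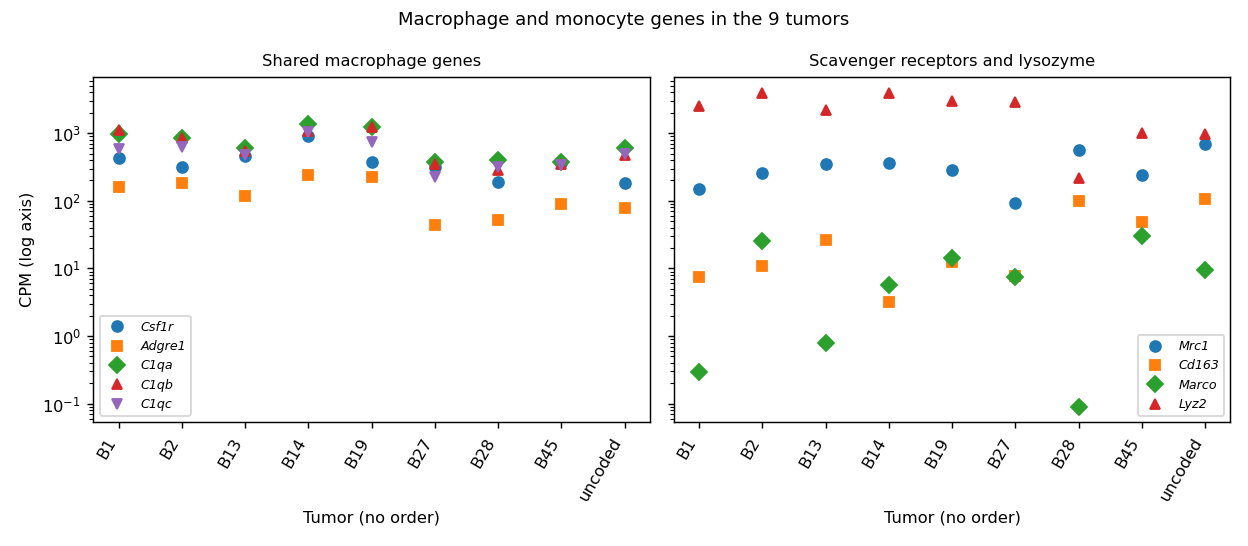
CPM on a log axis of macrophage and monocyte genes in the 9 tumors, with shared genes at left and scavenger receptors with Lyz2 at right. C1qa, C1qb, C1qc, Adgre1, and Csf1r each peak in B14 or B19, whereas Cd163 and Mrc1 are highest in B28 and the uncoded tumor and Lyz2 is lowest in B28.

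T cell genes differed widely between the tumors, and Cd3e fell by degrees rather than into separate classes. Cd3e, a chain of the CD3 complex, was read at 46.3 CPM in B27, 14.9 CPM in B2, 14.1 CPM in B19, 12.96 CPM in B14, and 7.56 CPM in B1. It was read at 3.14 CPM in B45, 3.07 CPM in B13, 0.866 CPM in the uncoded tumor, and 0.408 CPM in B28, the last resting on 9 reads. The value of B1 rested on 26 reads and its low TMM factor, against 68 reads in B45 and 54 in B13. No line had a read of Cd3e, Cd3d, Cd3g, Cd4, Cd8a, Il2ra, or Cd2, and the mean of Cd3e was at least 457.6-fold higher in the tumors, or at least 283.8-fold without B27. Cd3g spanned 0.907 to 111.4 CPM and Cd3d 0.680 to 42.0 CPM, with the same highest and lowest tumors, B27 and B28.

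The CD8 coreceptor genes did not follow CD3 in B27, whereas Cd4 was highest there. Cd8a was highest in B14 with 23.9 CPM, B19 with 15.6 CPM, B2 with 13.9 CPM, and B1 with 10.5 CPM, and Cd8b1, the other CD8 chain, in B19 with 15.1 CPM. In B27, the tumor with the most Cd3e, Cd8a was at 1.51 CPM (33 reads) and Cd8b1 at 1.65 CPM (36 reads), within the range of the 4 tumors with the least Cd3e (1.41 to 2.84 CPM and 0.462 to 1.71 CPM). Cd4 was at 17.1 CPM (372 reads) in B27. Per kilobase the ratio of Cd4 to Cd8a was therefore 10.2 in B27 and between 0.218 and 0.902 in the other 8 tumors. Cd4 is also carried by some macrophages, and its level was not separated by cell type here.

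Il2ra, the alpha chain of the interleukin 2 receptor, was read at 65.7 CPM in B27 and at 0.693 to 6.77 CPM in the other tumors. Foxp3, the factor of regulatory T cells, did not stand out there, with 2.43 CPM in B27 against 3.23 CPM in B2, 2.04 CPM in B19, and 0.227 CPM in B28. Cd2, an adhesion receptor of T cells, was highest in B2 with 15.4 CPM and reached 9.59 CPM in B27, and Lck was likewise highest in B2 with 29.02 CPM. Against the floor of 3 counts over the lines, the mean of Il2ra was at least 427.6-fold higher in the tumors and at least 153.8-fold without B27, and that of Cd3g at least 891.6-fold and at least 447.9-fold.

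Of the 18 other T cell genes in the list 17 were in the table and tested. In the tumors 16 were higher and 1, Ikzf2, was lower, against 22.7% and 12.4% of all tested genes. The sum of the list was highest in B27 with 327.4 CPM and lowest in B13 with 40.6 CPM, against 19.3 to 30.6 CPM in the lines. Lat, an adaptor of T cell receptor signaling and the highest of them by its tumor mean, ran from 2.59 CPM in B45 to 63.5 CPM in B27, but Tcf7, a factor of naive and memory T cells, was lowest in B27 with 4.08 CPM and highest in B2 with 34.9 CPM. Tcf7 was not confined to T cells here. It reached 4.97 CPM in the lines, and 17.3 CPM in B28 and 15.6 CPM in the uncoded tumor, which had the least Cd3e. Named after their values were seen, Icos and Ctla4, receptors of activated T cells, were at 67.4 and 46.8 CPM in B27 and at most at 4.03 and 3.49 CPM elsewhere, whereas Trac, the constant segment of the T cell receptor alpha chain, was highest in B14 with 14.6 CPM and at 4.82 CPM in B27. The near-identical constant segments of the beta chain, also named after their values were seen, were high in B27, with 15.4 CPM of Trbc1, its highest tumor, and 15.4 CPM of Trbc2, next to 17.4 CPM in B2. Of the thymocyte list, Rag1, Rag2, Dntt, and Ptcra, named after their values were seen, were at most at 1.65 CPM in any tumor. The rest of that list reached more. Besides Tcf7, Cd1d1 was at 29.8 CPM in B45 and 23.7 CPM in B27, and Ly6d and Themis were at 21.9 and 5.99 CPM in B2.

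**Figure D4:**
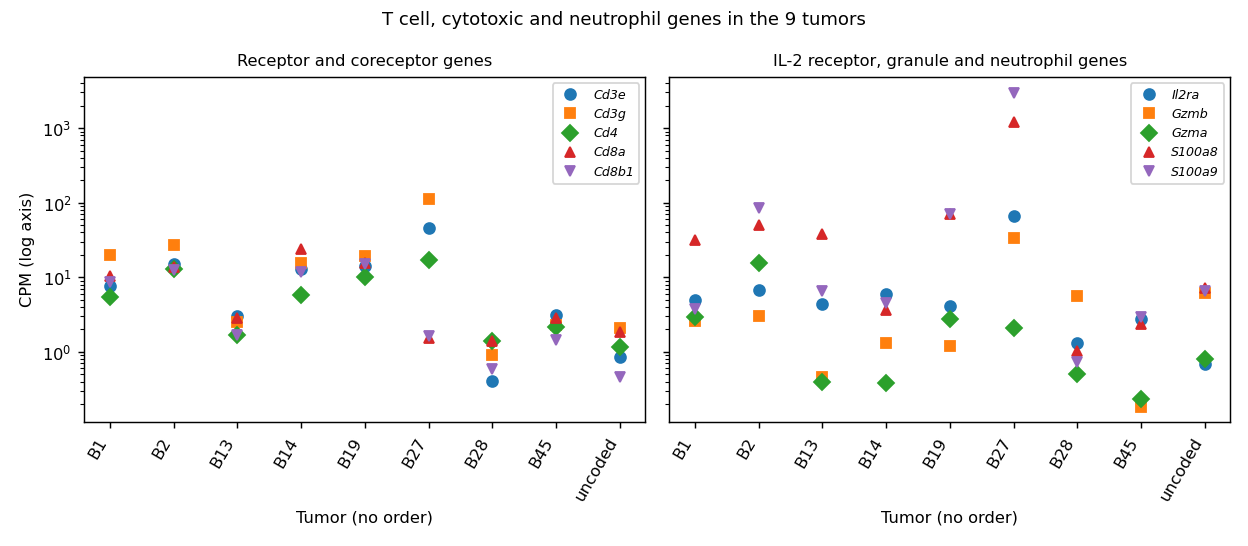
CPM on a log axis in the 9 tumors of T cell receptor and coreceptor genes at left, and of Il2ra, 2 granzymes, S100a8, and S100a9 at right. In B27 Cd3e, Cd3g, and Cd4 are at their highest while Cd8a and Cd8b1 are near those of the tumors with the least Cd3e, and S100a8 and S100a9 reach 1212 and 2970 CPM only there.

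B cell genes were concentrated in 3 tumors. Cd79a, a signaling chain of the B cell receptor, was read at 66.7 CPM in B2, 23.6 CPM in B19, and 23.5 CPM in B45, at 4.04 CPM in B27, and at 0.272 to 1.21 CPM in the other 5 tumors. Cd79b and Ms4a1, which encodes CD20, were highest in the same 3 tumors, with 50.7, 21.1, and 19.9 CPM and with 24.4, 13.1, and 15.3 CPM. Lines JB84 and JB93 had 0.759 and 0.497 CPM of Cd79a, above the lowest tumors, so the groups overlapped at this gene (log2 fold change 5.61 ± 1.47 SE, adjusted p = 0.00454, edgeR, and 4.66 without B2). Without any one of JB81, JB91, JB97, or JB87 the adjusted p was between 0.0114 and 0.0116 by edgeR, and the call did not hold. Of the 13 other B cell and plasma cell genes 9 were tested and 7 were higher, against 22.7% of all tested genes. Ighm, the heavy chain of IgM, was read at 475.2 CPM in B2, 369.9 CPM in the uncoded tumor, and 289.6 CPM in B45, although Cd79a in the uncoded tumor was 1.21 CPM. The other gene with a high mean, Sdc1, which epithelial and mesothelial cells also express, was between 22.5 and 437.3 CPM in the tumors and up to 236.7 CPM in the lines and did not pass the test.

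Lymphoid stroma genes were read in the same tumors and in others. Cxcl13, the B cell attracting chemokine, was at 198.6 CPM in B2, 94.4 CPM in B19, and 86.1 CPM in B45, and Ccl21a, a chemokine that binds CCR7, at 94.6 CPM in B27 and 78.8 CPM in B1. The lymphoid stroma list summed to 280.7 CPM in B19, 270.9 CPM in B2, and 11.8 CPM in B13. Of the sum in B19, 134.9 CPM came from Glycam1, named after its values were seen, which was at most 8.49 CPM in the other tumors. Whether lymphoid tissue or tissue next to the tumor contributed to the B cell levels was not tested.

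NK and cytotoxic genes were low and did not form 1 group. Ncr1, the NKp46 receptor, had 44 reads in B2, equal to 2.29 CPM, 11 reads in B19, and at most 7 in any other tumor. Gzma, a granzyme, was at 15.4 CPM in B2 and at most 2.91 CPM elsewhere, and Klrb1c, the NK1.1 antigen, at 3.96 CPM in B2 and 0.461 to 1.52 CPM elsewhere. Gzmb, the other granzyme, had another pattern, with 33.3 CPM in B27, 6.12 CPM in the uncoded tumor, 5.62 CPM in B28, and at most 3.02 CPM in the rest. Relative to Cd3e, per kilobase, Gzmb stood at 39.2 in B28 (124 reads of Gzmb, 9 of Cd3e) and 20.1 in the uncoded tumor (106 and 15 reads), against 0.167 to 2.04 in the other 7. Prf1, perforin, stayed between 0.171 and 1.41 CPM, and Nkg7, a granule membrane protein, reached 12.96 CPM in B14, 12.03 CPM in B2, 10.3 CPM in B19, and 10.2 CPM in B1 but 2.16 CPM in B27, the same 4 highest tumors as for Cd8a. Of the 11 other NK and cytotoxic genes 8 were tested and 5 were higher, against 22.7% of all tested genes. Klrk1, the NKG2D receptor, reached 16.6 CPM in B2, and Ccl5, a chemokine, was between 4.09 and 53.8 CPM.

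The 3 neutrophil members were highest in B27. S100a8 was read at 1212 CPM in B27 and at 1.04 to 70.8 CPM in the other 8 tumors, and S100a9 at 2970 CPM in B27 and at 0.725 to 84.4 CPM elsewhere. B19, with 70.8 and 71.2 CPM, and B2, with 49.8 and 84.4 CPM, came next. Ly6g, a neutrophil surface antigen, had 97 reads in B27, equal to 4.45 CPM, 11 reads in B19, 4 in B2, and at most 1 elsewhere, so it was not detectable at this depth in most tumors. The 2 S100 genes went apart in B1 and B13, where S100a8 was at 31.7 and 38.1 CPM but S100a9 at 3.78 and 6.59 CPM, a ratio of S100a9 to S100a8 per kilobase of 0.159 and 0.230 against 0.925 to 3.26 in the other 7 tumors.

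The size of the difference of S100a9 from the lines, none of which had a read, rested on B27. Its mean was at least 13960-fold higher in the tumors and at least 901.5-fold without B27 (floor of 3 counts over the lines). The difference passed the test with all tumors (adjusted p = 0.00535, edgeR) and without B27 (adjusted p = 0.00102, edgeR), but not with the close pairs of lines summed (adjusted p = 0.0160, edgeR) or without B1, B2, and the uncoded tumor (adjusted p = 0.0124, edgeR). With no read in the lines, S100a9 entered the test only through the tumors, so these p-values are not independent support for a difference. The log2 fold change of S100a8 was 11.64 with all tumors and 9.01 without B27. Of the 13 other neutrophil and granulocyte genes only 4 were tested, all higher, against 22.7% of all tested genes. Csf3r, the G-CSF receptor, was at 287.2 CPM in B27 and 7.97 to 22.1 CPM elsewhere. Ltf, lactoferrin, which glands of the airway also make, was at 409.1 CPM in B2 and at 14.2 CPM in B27. Cxcr2, a chemokine receptor of neutrophils, was named after its values were seen and was at 121.7 CPM in B27 and at most 2.03 CPM elsewhere. Not all genes of the list followed, and 4 that are known from the granules of maturing neutrophils, likewise named after their values were seen, were highest in B19, Ngp with 16.9 CPM against 3.03 CPM in B27, Camp with 13.2 against 5.00 CPM, Mpo with 6.20 against 4.91 CPM, and Elane with 1.52 against 0.138 CPM.

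Dendritic cell genes were the lowest class in most tumors. Itgax, the CD11c integrin chain that macrophages also carry, was the highest of them, between 7.90 CPM in B13 and 53.5 CPM in B27. Flt3, the receptor for the FLT3 ligand, spanned 0.725 CPM in B28 to 8.44 CPM in B2. Xcr1, a chemokine receptor of cross-presenting dendritic cells, was highest in B2 with 4.06 CPM and B1 with 3.49 CPM, and had 4 reads in B28 and 6 in B27. Siglech, a marker of plasmacytoid dendritic cells, was highest in B45 with 3.24 CPM and B27 with 2.43 CPM, so the 4 genes had no common highest tumor. Of the 10 other dendritic cell genes 9 were tested and 6 were higher, against 22.7% of all tested genes. Fscn1, an actin-bundling protein, was the 1 that was lower in the tumors, with 57.6 to 271.5 CPM against up to 2032 CPM in the lines. Tcf4, the other abundant gene of that list, did not pass the test.

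The granule genes of mast cells were highest in 3 of the 4 tumors with the least Cd3e, though not in B13. Cpa3, mast cell carboxypeptidase, was read at 18.02 CPM in the uncoded tumor, 15.7 CPM in B45, 8.84 CPM in B28, and 7.27 CPM in B1, and at 0.284 to 3.65 CPM in the other 5 tumors. Mcpt4, a chymase, had the same 4 highest tumors, with 23.6, 16.1, 15.8, and 12.2 CPM, and no read in any line. Both were near their floor in B14 (7 and 4 reads) and B13 (5 and 14 reads). Kit, the receptor for stem cell factor, did not follow them (r = 0.06 with Cpa3 and 0.03 with Mcpt4, against 0.98 between Cpa3 and Mcpt4) and was highest in B27 with 27.5 CPM and B2 with 15.2 CPM.

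Further mast cell genes differed between the tumors rich in Cpa3. Of the 10 other genes of the list 7 were tested and 6 were higher, against 22.7% of all tested genes. Hdc, histidine decarboxylase, was the highest of them by its tumor mean but not by its median (6.75 CPM, below Tpsb2 with 8.07 CPM and Cma1 with 7.61 CPM). It was at 607.2 CPM in B27 and 78.1 CPM in B2, both tumors with little Cpa3, and Gata2, a transcription factor, reached 25.4 CPM in the lines and did not pass the test. In B27 Tpsb2 and Cma1 were at 4.45 and 5.87 CPM, both below their medians. Which cell type carried Hdc was not tested. Mcpt1 and Mcpt2, chymases of mucosal mast cells named after their values were seen, were at 45.6 and 34.8 CPM in B28 and at 46.1 and 46.7 CPM in the uncoded tumor, but were not detected in B45, where the floor of 3 counts is 0.139 CPM, although its Cpa3 and Mcpt4 lay between theirs.

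The lineages were then compared across tumors by the lead gene of each, Ptprc, Csf1r, Cd3e, Cd79a, Nkg7, S100a8, Flt3, and Cpa3. Of the 28 pairs 21 correlated positively. By Pearson's r on log2(CPM + 1), 7 pairs had an unadjusted p under 0.05 and 0 pairs had a Benjamini-Hochberg adjusted p under 0.05, and by Spearman's rho 3 pairs did, in two-sided exact permutation tests over all 362880 pairings. The closest was that of Ptprc and Cd3e (r = 0.87, exact p = 0.00216, adjusted p = 0.0606, rho = 0.87, exact p = 0.00451, adjusted p = 0.0421), and r was 0.80 without B2 and B27. The other 2 pairs that passed by rho were Ptprc with S100a8 (r = 0.77, exact p = 0.0125, adjusted p = 0.0813, rho = 0.87, exact p = 0.00451, adjusted p = 0.0421, r = 0.49 without B2 and B27) and S100a8 with Flt3 (r = 0.64, exact p = 0.0635, adjusted p = 0.222, rho = 0.87, exact p = 0.00451, adjusted p = 0.0421, r = 0.69 without B27 and B28).

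Cd3e and S100a8 had r = 0.78 (exact p = 0.0116, adjusted p = 0.0813, rho = 0.77, exact p = 0.0214, adjusted p = 0.0998), which dropped to 0.42 without B27 and B28, so that relation rested on those tumors. Cd79a split the tumors into 3 with 23.5 to 66.7 CPM and 6 with at most 4.04 CPM, so its pooled values are not read as relations. Within the 6, none of its 7 relations with the other lead genes passed (0 with an unadjusted exact p under 0.05 by Pearson's r or Spearman's rho over 720 pairings, smallest adjusted p = 0.269 and 0.622), and the 3 were too few for a test. Csf1r did not follow Ptprc (r = 0.20, exact p = 0.608, adjusted p = 0.710, rho = 0.18, exact p = 0.644, adjusted p = 0.693, r = 0.65 without B2 and B27). The only strongly negative pair was Csf1r with Cpa3 (r = -0.74, exact p = 0.0194, adjusted p = 0.0904, rho = -0.75, exact p = 0.0255, adjusted p = 0.102), with r = -0.43 without B14 and the uncoded tumor. Leaving out B14 let 3 pairs pass by Pearson's r (Ptprc with Cd3e, Ptprc with S100a8, and Cd3e with S100a8, each with r of at least 0.845 and an adjusted p of at most 0.0347 by the exact permutation test), and leaving out B45 let 1 pass (Cd79a with Flt3, a pooled value over both Cd79a sets). All 9 tumors belong to 1 library set, so the values within it are these same values.

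Means over all genes of a lineage are given as a description, without a test. The mean of the T cell genes correlated with that of dendritic cell (r = 0.80), NK and cytotoxic (r = 0.74), and neutrophil genes (r = 0.72), and the mean of the macrophage genes correlated weakly with each of them (r = 0.38 with T cell, 0.21 with NK and cytotoxic, 0.19 with dendritic cell, and -0.06 with neutrophil genes). The mast cell mean ran against that of macrophages (r = -0.55) and T cells (r = -0.30). Across the tumors the members varied more than other genes, with a median SD of log2(CPM + 1) of 1.16 against 0.56 over all tested genes.

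**Figure D5:**
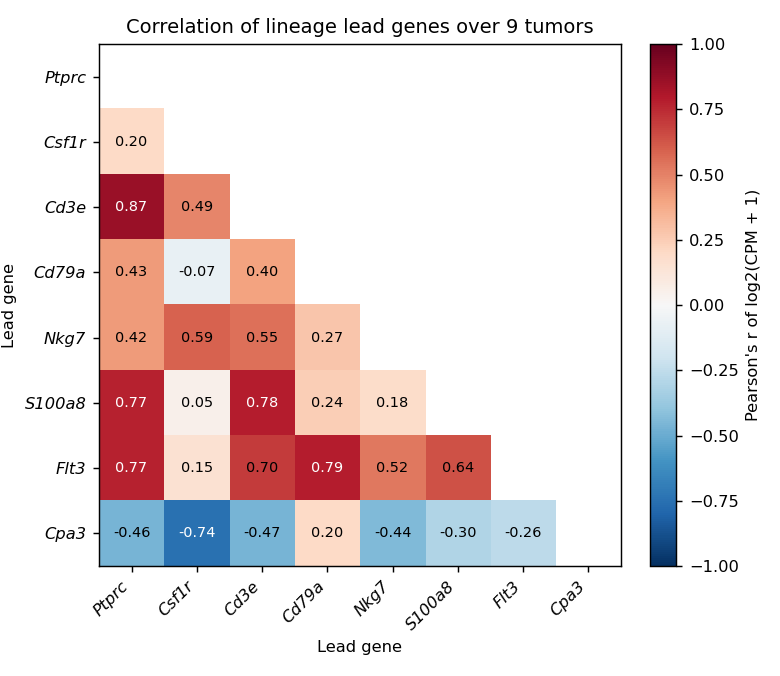
Pearson's r of log2(CPM + 1) over 9 tumors for each of the 28 pairs of lineage lead genes, by color and as numbers. Cd3e, S100a8, and Flt3 correlate with Ptprc at 0.77 to 0.87, Csf1r does so at 0.20, and Cpa3 is negative with all but Cd79a.

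The genes most like 3 lead genes were sought among 14413 other genes with a symbol and a mean of at least 1 CPM in the tumors, by Pearson's r over the 9 tumors. Among those most like Cd3e were Fgl2 (r = 0.98) and Rac2, Cd5, and Cd247 (r = 0.97), of which Cd5 and Cd247 are genes of T cell receptor signaling and Rac2 is a GTPase of blood cells, and these 4 peaked in B27. The 5 most like Cpa3 were Cma1 (r = 0.97) and Tpsb2 (r = 0.96), a mast cell chymase and tryptase, the mast cell receptor gene Mrgprb1 (r = 0.92), Gzf1 (r = 0.91), and Pot1a (r = 0.90). By contrast, the 5 most like Csf1r were Ak5 (r = 0.98), AI115009 (r = 0.96), Tango6, Mmp17, and Syt11 (r = 0.95), none of which is on the macrophage lists used here, and all 5 peaked in B14 together with Csf1r.

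Markers of other tissues moved with some of these levels. Mesothelial genes summed to 6062 CPM in B14, the tumor with the highest macrophage level, and were lowest in B28 with 847.1 CPM and B27 with 890.4 CPM, which also had the lowest macrophage levels and the lowest Adgre1. Endothelial genes, led by Pecam1 and Cdh5, were highest in B27 with 943.3 CPM and B2 with 740.0 CPM, and 7 of 8 tested were higher in tumors than in lines. Fibroblast genes, led by Col1a1 and Col3a1, summed to between 6662 CPM in B1 and 28300 CPM in B13, and 5 of 6 were higher. Red cell genes, led by Hbb-bs and Hba-a1, were highest in B2 with 1938 CPM and lowest in B28 with 3.13 CPM, and all 5 were higher. Muscle, lung epithelial, and adipocyte genes were higher in 6 of 7, 2 of 2, and 2 of 2 tested, and mesothelial genes in 0 of 10. Cell division genes, led by Mki67 and Top2a, were lower in the tumors in 4 of 5, and among tumors were highest in the uncoded tumor with 762.6 CPM and B28 with 500.4 CPM, the tumors with the lowest Cd3e, and lowest in B45 with 44.4 CPM. Of the 8 thymocyte genes 4 were tested and 4 were higher, and of the 6 lymphoid stroma genes 2 were tested and 2 were higher. Over all tested genes, 22.7% were higher and 12.4% were lower in the tumors. Genes with almost no reads in the lines entered the test only through the tumors. The part of other tissues in the lineage levels was not tested.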

How the data were processed

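RNA of 9 tumors and 6 cell lines was analysed from 1 table of whole-number counts per Ensembl gene, which the authors deposited without normalization. As their methods state, single-end poly-A libraries were aligned to mm10 with TopHat2 (2.0.12 in the submitters' processing notes), and reads per gene came from HTSeq-count. Strand setting was not given in the sources used here, and reads of near-identical genes (Lyz1 and Lyz2, the Ly6, Klrb1, granzyme, and mast cell protease families) can be split or lost. Lines were assigned by the line names in a supplementary table head, tumors only as a group. Another 14 columns of per-sample values, log2 values of DNA, and the chromatin profiles were not used.

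Counts were filtered with filterByExpr (minimum count 10, 14383 genes left), scaled by TMM, and compared in R 4.3.3 with edgeR 4.0.16 (glmQLFit, glmQLFTest, no covariates), tested on simulated data first. DESeq2 1.42.0 was an alternative. Log2 fold changes of all tested genes had a median of 0.17 with TMM and 0.06 with library size. With 0 reads in the lines, folds use a floor of 3 counts over the 6 lines, and with 1 to 3 reads a ratio with its 95% exact Poisson interval, counting error only. Levels of single tumors have no replicate. CPM per kilobase uses the union of exons (GENCODE M21), which overstates the length of genes with many isoforms such as Ptprc. Correlations used scipy 1.17.1 in Python 3.11.15 and figures matplotlib 3.10.9. Symbols were found for 98.5% of genes.

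Genes named are all 41 members, the 2 genes with the highest tumor mean in each of 17 context lists, and the 5 genes most like Csf1r, Cd3e, and Cpa3, unless the text says otherwise; 1 gene that this rule names is not reported here. The lists had Trdc and Muc16 missing from the table. Members and lists were chosen with earlier results of these data known.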

Additional observations from a re-analysis of the deposited data

Results flagged for a closer look

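In 49 sets of values (a member in the 9 tumors or in the 6 lines, with more than 3 reads in at least 1 library), 8 had 1 library far from the others on the log2(CPM + 1) scale by Dixon's ratio (above 0.493 for tumors and 0.625 for lines), where chance flags about 1 in 20 such sets, or 2.5 here. B27 stood apart for Il2ra (65.7 CPM, others at most 6.77 CPM) and Ly6g (4.45 CPM, others at most 0.725 CPM). B2 stood apart for 3 NK and cytotoxic genes, Ncr1 (2.29 CPM, others at most 0.725 CPM), Klrb1c (3.96 CPM, others at most 1.52 CPM), and Gzma (15.4 CPM, others at most 2.91 CPM), and it is also the tumor with the lung epithelial genes. B28 stood apart as the lowest tumor for Lyz2 (220.0 CPM, others at least 983.1 CPM). Among the lines, JB87 stood apart for Mrc1 with 12 reads (0.924 CPM, others at most 0.271 CPM) and JB97 for Kit with 10 reads (0.499 CPM, others at most 0.0823 CPM). S100a8 and S100a9 in B27 did not pass this ratio, because the other tumors are also spread over a wide range on the log scale.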

How the results depend on the processing

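The count of 37 members higher in the tumors stayed between 36 and 38 with library size only, DESeq2 size factors, DESeq2, no filter beyond 1 count, other thresholds, and the close pairs of lines summed, and was 38 without Gm42418, Lars2, and mitochondrial genes (added after seeing the data). It was 23 of 23 tested with at least 10 counts in every tumor or every line, and 25 of 27 without B1, B2, and the uncoded tumor (also added), mainly because fewer members were tested, and 32 to 38 when 1 library was left out. Lck lost its call with library size only (adjusted p = 0.0143) and Cd79a and S100a9 lost theirs with close lines summed (0.0204 and 0.0160, edgeR). Without B27 the lower bounds of the fold moved by over 1.5 times for 6 of 18 members with no read in the lines (added after seeing the data). The count of tumors in which macrophage genes were first, 8, stayed at 8 under 4 alternatives and was 6 under 2. The count of correlated pairs, 0, was 0 with log2(CPM + 0.1), library size only, levels relative to Ptprc, and without B1, B2, and the uncoded tumor, and 0 to 3 when 1 tumor was left out: without B14, Ptprc with Cd3e, Ptprc with S100a8, and Cd3e with S100a8 passed, and without B45, 1 pair, Cd79a with Flt3, passed. No paired analysis was possible because the tumor columns carry no replicate numbers. Library set could not be a covariate, since 1 set held all tumors and the other 2 held only lines. Depth limits genes under 3 counts, which is 0.872 CPM in B1 and 0.126 to 0.198 CPM in the other tumors.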
